A study of Mus musculus with 30 samples.

Results

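Wild type (WT) mouse back skin taken 2 days after the last of 3 applications of the phorbol ester TPA was compared with WT back skin of day 0, over all genes on the array. The comparison rested on 6 of the 30 arrays of the series, 3 at day 2 and 3 at day 0, each labelled as a separate biological replicate of female 129–C57BL/6 mice 8 to 12 weeks old. The day 2 mice had received 50 µM TPA in acetone at intervals of 24 h on shaved skin. The day 0 mice are labelled untreated and described as acetone-treated, so vehicle and lack of TPA define the control. RNA came from whole ground back skin, and fewer cells of a type and less RNA per cell cannot be told apart in it. WT skin of days 1 and 4 served to show where WT day 2 differed, as did D6-deficient skin of days 0 and 2. These groups had 3 arrays each, and the D6-deficient mice shared strain, sex, age and treatment. All 30 arrays of the series also entered the estimate of spread behind the tests. D6-deficient mice lack D6 (Ccbp2 in the array annotation, now Ackr2).

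TPA activates protein kinase C, and on mouse skin it is known to make keratinocytes divide, to change their differentiation, and to draw leukocytes into the dermis and epidermis. The epidermis renews itself from dividing basal cells that express Krt5 and Krt14, through spinous cells with Krt1 and Krt10, to granular and cornified cells held together by crosslinked loricrin, involucrin, small proline-rich proteins and late cornified envelope proteins. D6 is an atypical chemokine receptor of lymphatic endothelium that takes up and degrades inflammatory CC chemokines.

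Values are log2 intensities of Affymetrix probe sets, normalized together by the authors, and an intensity of one probe set cannot be set against that of another. Array replicates were close, with a median SD of 0.151 at day 0 and 0.153 at day 2 and correlations within a group of at least 0.986, against at most 0.966 between the groups. The arrays of the series fell into 17 with higher and 13 with lower hybridization controls, which mixed the groups (replicates 1 and 2 of day 0 and replicates 2 and 3 of day 2 were in the higher set). Tests used limma with Benjamini-Hochberg adjustment over 36029 probe sets, and "called" means an adjusted p under 0.05 with more than a 3-fold change. An exact permutation test of 3 against 3 arrays cannot go below 0.1, and the p values measure the spread between these mice. The keratinocyte markers Krt1, Krt5, Krt10, Krt14 and Trp63 averaged between 11.89 and 12.03 per array at day 0. Fibroblast markers averaged between 13.06 and 13.70 there, and skeletal muscle markers between 13.48 and 13.78. As levels of different probe sets cannot be compared, these values do not test the tissue label.

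Of the tested probe sets, 686 were called at day 2 (1.90%), 434 higher (1.20%) and 252 lower (0.699%). The higher calls came from 351 genes with a single symbol and the lower calls from 178. In 433 of the 434 higher and 250 of the 252 lower probe sets the day 2 arrays did not overlap those of day 0, beside 18.5% and 21.9% of all probe sets separated in those directions. Counted once per gene by its brightest probe set, 314 of 17772 genes were called higher (1.77%) and 153 lower (0.861%). On the adjusted p alone 2327 rose (13.1%) and 2813 fell (15.8%), so that the balance between rises and falls turned with the fold threshold. All gene lists below are counted by the brightest probe set, whereas the 15 genes that changed most each way were ranked by their largest. Counts of list members stand beside these shares of all genes.

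The 15 genes that rose most were largely genes of activated and cornifying epidermis. They held 5 small proline-rich genes (Sprr), 2 late cornified envelope genes (Lce3), the keratins Krt6b and Krt16, the beta-defensin gene Defb3, the serpin Serpinb3a, the stefin Stfa2l1, the kallikrein Klk6, the urate oxidase gene Uox and 2610528A11Rik. Their increases lay between 62.5-fold and 317-fold. Lce3a, a late cornified envelope gene, read 5.19, 4.09 and 4.36 at day 0 and 12.92, 13.32 and 12.32 at day 2, a 317-fold rise (log2 change 8.31, SE 0.54, adjusted p = 1.33e-10). The antimicrobial peptide gene Defb3 read 4.05, 4.07 and 3.84 at day 0 and 11.87, 11.91 and 12.19 at day 2 (log2 change 8.002, SE 0.55, adjusted p = 3.83e-10). The groups lay far apart in both genes. They were tight in Defb3, while the SD of Lce3a was 0.569 at day 0 and 0.504 at day 2. Uox, which degrades uric acid, was less even, with 3.73, 4.11 and 3.99 at day 0 and 10.996, 10.76 and 8.45 at day 2 (log2 change 6.13, SE 0.69, adjusted p = 5.69e-07), and replicate 3 of day 2 was its lowest treated array. Klk6, a secreted serine protease, read 6.38, 6.76 and 6.36 at day 0 and 12.65, 12.63 and 12.11 at day 2 (log2 change 5.97, SE 0.33, adjusted p = 1.42e-11).

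**Figure D1:**
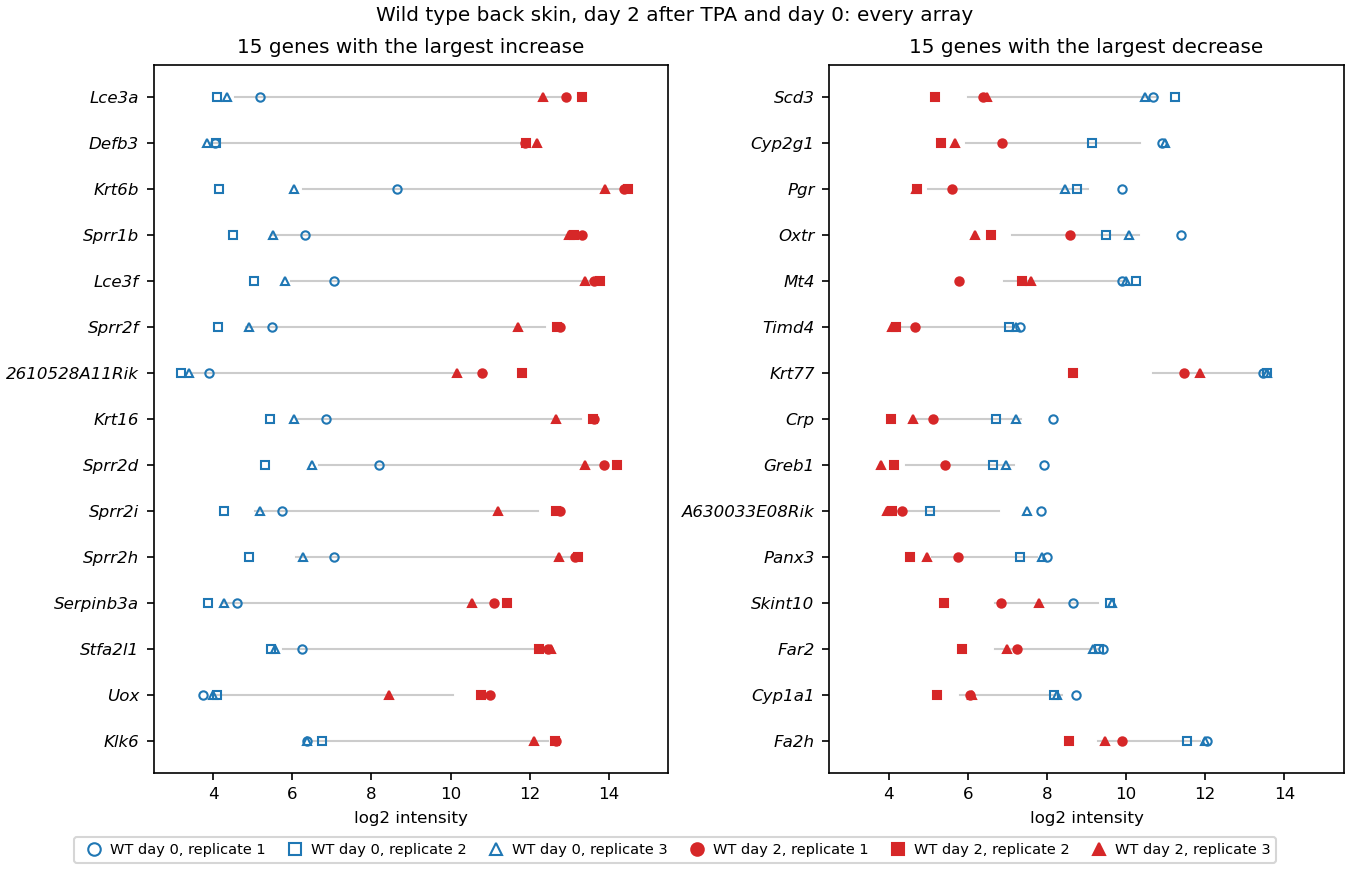
Log2 intensity of each of the 6 WT arrays (x axis) for the 15 genes with the largest increase (left) and the 15 with the largest decrease (right) at day 2; open blue symbols are day 0, filled red symbols day 2, symbol shape gives the replicate and grey lines join the group means. Red and blue do not overlap in any row, by the rule that chose the genes, and Krt77 shows one day 2 array, replicate 2, at 8.67, far below the other two.

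Small proline-rich proteins, precursors of the cornified envelope, had the highest median of the 43 gene lists examined. Of 9 members tested, 8 were called higher and none lower, with a median log2 change of 6.96 beside -0.002 over all genes. Sprr2d read 8.19, 5.32 and 6.49 at day 0 and 13.86, 14.21 and 13.39 at day 2 (log2 change 7.15, SE 0.53, adjusted p = 1.1e-09). Sprr1b read 6.33, 4.51 and 5.51 at day 0 and 13.33, 13.12 and 12.98 at day 2 (log2 change 7.69, SE 0.54, adjusted p = 4.92e-10), and Sprr2f, Sprr2i and Sprr2h rose by 7.54, 7.13 and 6.96 on the log2 scale. At day 0, replicate 1 was the highest and replicate 2 the lowest array in all 5 of these genes. Sprr1a started higher and rose less, from 9.20, 10.43 and 9.55 to 12.90, 12.62 and 12.78 (log2 change 3.04, SE 0.31, adjusted p = 1.69e-07). Sprr3, a member of internal stratified epithelia, was near 5 on every array, with 5.07, 4.97 and 4.98 at day 0 and 4.75, 5.36 and 5.38 at day 2 (log2 change 0.16, SE 0.28, adjusted p = 0.73). The Sprr2 genes are near copies of each other, as are the Lce3 genes, so a probe set of one can read RNA of another, and the values of single members are uncertain.

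The Sprr genes lie together on chromosome 3, and all 5 Sprr genes among the strongest risers held the letters TGANTCA within 250 bases before their start, a pattern wider than the TPA response element TGAGTCA, to which AP-1 factors are known to bind, which 4 of them held and Sprr1b did not. Their upstream stretches are shown because the members rose together. RefSeq windows of GRCm38.p6 ran from 250 bases before to 50 after the start, and those of Sprr1b, chr3:92438780-92439029 on the minus strand, of Sprr2d, chr3:92338890-92339139 on the plus strand, and of Sprr2f, chr3:92364937-92365186 on the plus strand, are given up to the start, 5′ to 3′, with the pattern in capitals.
Sprr1b: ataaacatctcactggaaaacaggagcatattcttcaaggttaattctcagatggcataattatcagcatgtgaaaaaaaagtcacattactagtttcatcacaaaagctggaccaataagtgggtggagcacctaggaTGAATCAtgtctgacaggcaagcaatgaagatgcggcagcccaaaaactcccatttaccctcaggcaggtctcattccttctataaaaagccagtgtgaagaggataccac
Sprr2d: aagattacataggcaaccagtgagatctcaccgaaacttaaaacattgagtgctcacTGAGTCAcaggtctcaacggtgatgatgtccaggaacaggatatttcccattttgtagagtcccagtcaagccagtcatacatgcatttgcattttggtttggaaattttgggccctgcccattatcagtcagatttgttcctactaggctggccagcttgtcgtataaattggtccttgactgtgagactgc
Sprr2f: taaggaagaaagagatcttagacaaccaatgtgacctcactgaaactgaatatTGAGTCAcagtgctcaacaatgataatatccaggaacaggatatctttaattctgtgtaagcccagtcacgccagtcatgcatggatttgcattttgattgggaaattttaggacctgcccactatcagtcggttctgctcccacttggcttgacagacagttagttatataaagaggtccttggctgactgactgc
The pattern started 111 bases before the start of Sprr1b, 193 before that of Sprr2d and 197 before that of Sprr2f. It reads the same on both strands. It was in a window of 43 of the 241 called higher genes that had one (17.8%), of 11 of 109 called lower genes (10.1%) and of 902 of all 12793 tested genes with a window (7.05%). Of all 32851 RefSeq windows of this length, 7.81% held it. The narrower TGAGTCA, on either strand and searched after the wider one was counted, was in a window of 35 called higher genes (14.5%), 8 called lower genes (7.34%) and 654 of all tested genes (5.11%), and in 5.2% of all windows. Among the 15 genes with the largest increase, 13 had a window and 5 held the wider pattern, all of them Sprr genes, and among the 15 with the largest decrease 12 had a window and only that of Crp held it. A match describes letters and was not tested for binding.

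Keratins of activated epidermis, which replace the usual pairs in wounded and dividing epidermis, rose: 4 of 9 were called higher, 1 more passed the adjusted p, and 1 fell on it. That fall was lost when any of 4 single arrays was left out. Krt6b read 8.65, 4.15 and 6.05 at day 0 and 14.39, 14.47 and 13.91 at day 2 (log2 change 7.98, SE 0.79, adjusted p = 9.1e-08), and Krt16 read 6.85, 5.43 and 6.06 at day 0 and 13.63, 13.60 and 12.67 at day 2 (log2 change 7.19, SE 0.54, adjusted p = 1.19e-09). Replicate 1 of day 0 held more Krt6b than the other control arrays. Krt6a and Krt17 rose by 4.78 and 2.25 from higher control levels. Krt6a and Krt6b are near copies and their probe sets may share RNA.

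Basal and suprabasal keratins moved unequally, with 1 of 10 called higher and 2 called lower. On the adjusted p 3 were higher and 2 lower, beside 13.1% and 15.8% of all genes. Krt14, of basal cells, read 12.69, 12.66 and 12.83 at day 0 and 14.13, 14.20 and 13.84 at day 2 (log2 change 1.33, SE 0.16, adjusted p = 1.15e-06) by a probe set of a kind that can read related genes, and its partner Krt5 rose by 1.04 (adjusted p = 5.77e-06). Krt1, of spinous cells, read 11.94, 11.62 and 11.42 at day 0 and 13.54, 13.48 and 13.58 at day 2 (log2 change 1.87, SE 0.48, adjusted p = 0.00543), whereas its partner Krt10 read 13.63, 13.66 and 13.59 at day 0 and 13.99, 13.81 and 13.89 at day 2 (log2 change 0.27, SE 0.42, adjusted p = 0.69). Krt15, a keratin of resting basal and hair follicle stem cells, fell, with 12.28, 12.53 and 12.39 at day 0 and 10.60, 10.26 and 10.52 at day 2 (log2 change -1.94, SE 0.30, adjusted p = 3.33e-05). Krt77, a suprabasal keratin, read 13.46, 13.55 and 13.55 at day 0 and 11.46, 8.67 and 11.88 at day 2 (log2 change -2.85, SE 0.998, adjusted p = 0.0364). The size of its fall depended on replicate 2 of day 2. Without that array the log2 change was -1.85 with an adjusted p of 0.233, and the remaining day 2 arrays still lay below every control. Without any 1 control array the adjusted p lay between 0.0757 and 0.0801.

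Of 34 cornified envelope and barrier genes tested, 20 were called higher and 1 lower, 27 rose and 1 fell on the adjusted p, and the median log2 change was 1.91. Rptn, encoding the fused S100 protein repetin, read 6.98, 7.74 and 7.62 at day 0 and 12.65, 12.77 and 12.47 at day 2 (log2 change 5.18, SE 0.43, adjusted p = 6.96e-09). Casp14, the caspase of cornification that acts on filaggrin, read 8.13, 7.88 and 7.78 at day 0 and 12.002, 12.39 and 11.84 at day 2 (log2 change 4.15, SE 0.26, adjusted p = 7.45e-11). Neither gene's groups came near to overlapping. Flg, encoding filaggrin, spread more at day 0, with 9.69, 8.03 and 8.79 at day 0 and 11.98, 11.45 and 12.28 at day 2 (log2 change 3.07, SE 0.51, adjusted p = 8.34e-05). The crosslinking enzyme genes Tgm3 and Tgm1 rose by 3.06 and 2.09, cornifelin (Cnfn) by 3.60 and involucrin (Ivl) by 2.04. Loricrin (Lor), the main envelope protein and bright from the start, read 13.52, 13.48 and 13.43 at day 0 and 13.88, 13.29 and 13.77 at day 2 (log2 change 0.18, SE 0.47, adjusted p = 0.826). Lce3b and Lce3c rose by 5.02 and 5.71, and of 11 Lce1 genes measured the changes ran from -2.41 in Lce1m, the only called fall of the list, to 2.47 in Lce1g.

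Lipoxygenases and phospholipases of the epidermis rose alongside. Of 20 prostaglandin and lipoxygenase enzymes, 5 were called higher, 10 rose on the adjusted p and none fell. Pla2g4b, a cytosolic phospholipase, read 4.53, 3.65 and 4.02 at day 0 and 9.54, 9.14 and 8.92 at day 2 (log2 change 5.14, SE 0.41, adjusted p = 4.08e-09). Alox8, the 8S-lipoxygenase known for its induction by phorbol ester in mouse skin, read 5.11, 4.59 and 5.12 at day 0 and 10.56, 10.41 and 8.90 at day 2 (log2 change 5.02, SE 0.74, adjusted p = 2.25e-05), with replicate 3 of day 2 the lowest treated array. Alox15 rose by 2.78 and Alox12b, whose product is needed for the skin barrier, by 1.90. Ptgs2, the inducible cyclooxygenase gene, read 5.98, 5.39 and 4.99 at day 0 and 6.64, 8.25 and 6.15 at day 2 (log2 change 1.56, SE 0.49, adjusted p = 0.0194). Replicate 2 of day 2 held its highest value, and without that array the change was 0.94 with an adjusted p of 0.18; without replicate 3 of day 0 it was 1.33 with an adjusted p of 0.0872.

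Polyamine genes did not move as a block. Smox, which oxidizes spermine, read 7.55, 7.61 and 7.49 at day 0 and 10.53, 10.47 and 10.16 at day 2 (log2 change 2.84, SE 0.23, adjusted p = 3.3e-09) and was the only member of 12 called. Sat1, the acetyltransferase that starts polyamine breakdown, rose by 1.05 (adjusted p = 1.05e-05). Odc1, the rate-limiting enzyme of polyamine synthesis and a classical early target of TPA, read 10.09, 10.09 and 10.33 at day 0 and 10.37, 10.21 and 10.13 at day 2 (log2 change 0.06, SE 0.24, adjusted p = 0.88). On the adjusted p, 4 members were higher and 2 lower, beside 13.1% and 15.8% of all genes. The 4 became 2 without replicate 1 of day 0 or replicate 1 of day 2. The 2 lower became 1 without replicate 3 of day 0.

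Antimicrobial and S100 genes rose widely: 11 of 24 were called higher and none lower, with 15 higher and 1 lower (2 without replicate 3 of day 0) on the adjusted p and a median log2 change of 1.15. S100a8 read 11.15, 7.74 and 8.23 at day 0 and 14.25, 14.40 and 14.02 at day 2 (log2 change 5.18, SE 0.58, adjusted p = 6.14e-07), and S100a9, which encodes its partner in calprotectin, read 10.93, 8.03 and 8.43 at day 0 and 14.64, 14.81 and 14.36 at day 2 (log2 change 5.47, SE 0.58, adjusted p = 2.67e-07). In both, replicate 1 of day 0 was well above the other controls, and all day 2 arrays stood above it. Lcn2, encoding the siderophore-binding lipocalin 2, read 8.59, 6.42 and 7.31 at day 0 and 11.24, 12.48 and 9.85 at day 2 (log2 change 3.75, SE 0.52, adjusted p = 9.79e-06). The secretory leukocyte protease inhibitor gene Slpi rose by 4.20, the chitinase-like gene Chi3l1 by 5.93, and the acute phase genes Saa3 and Saa1 by 4.82 and 4.47. Defb4 read 3.75, 3.47 and 3.38 at day 0 and 5.84, 7.21 and 5.88 at day 2 (log2 change 2.78, SE 0.37, adjusted p = 6.88e-06). The Saa genes are close relatives and their probe sets may share RNA.

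Protease inhibitors of the epidermis followed. Of 14 clade B serpins, 4 were called higher, 9 rose and 1 fell on the adjusted p. Serpinb3a, a cysteine protease inhibitor, read 4.59, 3.88 and 4.27 at day 0 and 11.10, 11.43 and 10.54 at day 2 (log2 change 6.78, SE 0.38, adjusted p = 1.52e-11), and Serpinb12 read 6.01, 5.81 and 5.03 at day 0 and 10.14, 10.31 and 9.72 at day 2 (log2 change 4.44, SE 0.40, adjusted p = 1.83e-08). Of 15 stefins and cathepsins, 3 were called higher, all of them stefin genes, and none fell on the adjusted p. Stfa3 read 9.81, 7.72 and 7.97 at day 0 and 13.91, 13.99 and 13.90 at day 2 (log2 change 5.43, SE 0.40, adjusted p = 8.12e-10), and Stfa2l1 rose by 6.65. No cathepsin moved more than 0.45. The gasdermin genes Gsdmc and Gsdma, whose family forms membrane pores, rose by 4.90 and 2.84 and were the only called members among 21 Toll-like receptor and inflammasome genes. The mouse stefin A and gasdermin C genes are families of near copies, as is Serpinb3, and the single members are uncertain.

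Of 17 members of the IL-1 family, 7 were called higher and none lower, and 12 rose and 1 fell on the adjusted p; the fall was lost without any of 4 single arrays. The IL-36 cytokines led. Il1f6 (IL-36 alpha) read 8.43, 6.32 and 7.95 at day 0 and 12.98, 12.79 and 12.90 at day 2 (log2 change 5.33, SE 0.44, adjusted p = 4.9e-09), Il1f8 (IL-36 beta) rose by 4.20 and Il1f9 (IL-36 gamma) by 3.65. Il1f5, the antagonist of the IL-36 receptor, read 9.37, 9.21 and 9.30 at day 0 and 12.71, 12.74 and 12.66 at day 2 (log2 change 3.41, SE 0.25, adjusted p = 8.34e-10), so agonists and antagonist rose together. Il1a, of keratinocytes, read 5.78, 4.89 and 5.48 at day 0 and 9.01, 7.74 and 8.53 at day 2 (log2 change 3.04, SE 0.29, adjusted p = 3.79e-08). Il1b read 7.20, 6.92 and 7.45 at day 0 and 9.88, 11.17 and 9.39 at day 2 (log2 change 2.95, SE 0.32, adjusted p = 3.65e-07), and the gene of the IL-1 receptor antagonist, Il1rn, rose by 2.08 (adjusted p = 1.86e-08).

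Growth factors that bind the EGF receptor split. Epgn, Areg, Ereg, Hbegf and Tgfa were called higher, by 2.88, 2.52, 2.47, 2.44 and 1.82, while Egf and Btc fell by 1.40 and 1.27 and Egfr itself read 0.86 lower by its brightest probe set (adjusted p = 0.000925). Areg, encoding amphiregulin, read 4.30, 4.66 and 4.53 at day 0 and 7.34, 6.98 and 6.73 at day 2 (log2 change 2.52, SE 0.39, adjusted p = 4.54e-05). Egf read 7.26, 7.55 and 7.55 at day 0 and 6.12, 6.23 and 5.82 at day 2 (log2 change -1.40, SE 0.18, adjusted p = 4.52e-06). The groups did not overlap in either gene. The adjusted p of Btc was 0.0294 and rose above 0.05 when any of 5 single arrays was left out, the exception being replicate 3 of day 2. None of the other 4 Egfr probe sets passed the adjusted p and 3 lay higher at day 2, by 0.35, 0.26 and 0.09, and averaged over its probe sets Egfr changed by -0.17 (adjusted p = 0.138), so that no direction is given for it. The other 2 probe sets of Tgfa did not pass.

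AP-1 and immediate early factors changed less. Ier3, an early response gene, was the only member of 15 called, with 9.49, 9.41 and 9.26 at day 0 and 11.09, 11.23 and 10.92 at day 2 (log2 change 1.69, SE 0.14, adjusted p = 4.9e-09), and 5 rose on the adjusted p. Junb rose by 1.01 (adjusted p = 4.89e-05). Fos read 11.46, 9.54 and 10.54 at day 0 and 10.03, 10.68 and 9.76 at day 2 (log2 change -0.36, SE 0.44, adjusted p = 0.6) and Jun read 9.66, 9.73 and 9.88 at day 0 and 9.91, 10.05 and 9.87 at day 2 (log2 change 0.19, SE 0.10, adjusted p = 0.18; a second probe set gave -0.21). Fosl1 rose by 0.88 with an adjusted p of 0.0234, and its call was lost without any of 4 single arrays (adjusted p 0.0591 to 0.108), the exceptions being replicate 1 of each day. Among 16 SOCS and NF-kappaB feedback genes only Rel, an NF-kappaB subunit, was called, with 5.37, 5.79 and 5.88 at day 0 and 8.52, 7.77 and 7.10 at day 2 (log2 change 2.12, SE 0.31, adjusted p = 2.27e-05); 7 rose and 1 fell on the adjusted p, the 7 became 4 without replicate 3 of day 0, and the fall was lost without any of 3 single arrays. Among 18 other inflammatory cytokines tested, only Il6 was called, with 4.47, 3.44 and 3.62 at day 0 and 6.32, 6.09 and 5.35 at day 2 (log2 change 2.07, SE 0.39, adjusted p = 0.000301).

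Neutrophil-attracting CXC chemokines rose with a wide spread at day 2. Of 6, Cxcl2, Cxcl3 and Cxcl5 were called, and Cxcl1 rose by 1.36 (adjusted p = 0.0007). Cxcl2 read 3.37, 3.18 and 3.49 at day 0 and 7.45, 10.45 and 6.84 at day 2 (log2 change 4.90, SE 0.66, adjusted p = 6.97e-06). Cxcl3 read 3.09, 2.97 and 2.85 at day 0 and 4.67, 6.67 and 3.55 at day 2 (log2 change 1.99, SE 0.53, adjusted p = 0.00652), and without replicate 2 of day 2 its change was 1.14 with an adjusted p of 0.0816. Cxcl5 read 3.31, 3.002 and 2.81 at day 0 and 4.39, 5.84 and 3.70 at day 2 (log2 change 1.61, SE 0.37, adjusted p = 0.00198). Replicate 2 of day 2 stood apart as the highest array for Cxcl2, Cxcl3 and Cxcl5.

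Among 18 CC chemokines, 2 were called higher (1.77% of all genes). On the adjusted p 5 rose and none fell, beside 13.1% and 15.8% of all genes. Ccl20, the ligand of Ccr6 and made by keratinocytes, read 5.86, 5.73 and 6.22 at day 0 and 9.50, 7.28 and 9.46 at day 2 (log2 change 2.81, SE 0.37, adjusted p = 5.14e-06). Ccl3, a ligand that D6 is known to bind, read 4.05, 3.65 and 3.61 at day 0 and 4.79, 7.42 and 5.21 at day 2 (log2 change 2.04, SE 0.44, adjusted p = 0.00131). Replicate 2 of day 2 was the lowest treated array for Ccl20 and the highest for Ccl3. Of 14 chemokine receptors, Cxcr6 and Ccr3 were called higher by 1.72 and 1.63, and 8 rose on the adjusted p, among them Ccr6 by 1.40 and the neutrophil receptor Cxcr2 by 1.01.

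Neutrophil genes rose in part. Of 17 tested in a list of surface markers, 5 were called higher, 9 rose on the adjusted p and the median log2 change was 1.02; the list also holds S100a8, a cytosolic protein gene counted above, and Pglyrp1, a granule protein gene, without which, a choice made after seeing the data, 3 of 15 were called, 7 rose and the median was 0.77. The 13 genes listed for granule and oxidase proteins leave out the granule protein gene Lcn2 described above. Of them, 1 rose and 1 fell on the adjusted p, beside 13.1% and 15.8% of all genes. None was called and the median was 0.13. Clec4e, the receptor Mincle, read 4.11, 3.63 and 3.92 at day 0 and 6.32, 8.32 and 6.11 at day 2 (log2 change 3.03, SE 0.43, adjusted p = 1.57e-05). Clec4d and Pglyrp1, a lectin and a peptidoglycan recognition gene, rose by 2.63 and 3.10. The receptor gene Csf3r rose by 1.55 and the collagenase gene Mmp8 by 1.56, both on the adjusted p. Mpo, encoding myeloperoxidase, read 6.07, 6.40 and 6.24 at day 0 and 4.89, 4.60 and 4.76 at day 2 (log2 change -1.49, SE 0.50, adjusted p = 0.0302), and its fall passed the adjusted p only with all arrays in the fit (0.0528 to 0.0888 with 1 left out). The neutrophil markers Csf3r, Cxcr2, Fpr1 and Mmp8, of which 3 passed the adjusted p, averaged between 5.51 and 5.75 at day 0 and between 6.34 and 7.62 at day 2, and replicate 2 of day 2, the high array for Cxcl2, was also the highest for Csf3r, Clec4e and Mmp8; its part in the chemokine values was not tested.

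Of the other leukocyte groups, few members were called. Beside the counts on the adjusted p below stand 13.1% of all genes that rose and 15.8% that fell. The macrophage markers Emr1, Cd68, Csf1r, Mrc1 and Cd163 averaged between 11.32 and 11.50 at day 0 and between 11.25 and 11.39 at day 2, and the T cell markers Cd3d, Cd3e, Cd3g, Cd4 and Cd8a between 6.42 and 6.83 and between 7.14 and 7.34. Of 21 macrophage and monocyte genes, 4 rose and 2 fell on the adjusted p; the chitinase-like gene Chi3l3 was the only one called, with 5.77, 4.57 and 4.43 at day 0 and 8.44, 8.34 and 7.37 at day 2 (log2 change 3.13, SE 0.50, adjusted p = 5.96e-05), and no fall remained without replicate 1 of day 0 or replicate 2 or 3 of day 2. Ms4a7 rose by 1.33 by its brighter probe set (adjusted p = 1.73e-05), and a dim one did not pass. Cd68 rose by 0.58 with an adjusted p of 0.0384, which was lost without any single array. T and NK cell genes rose in 8 of 22 and fell in none, with Cd5 and the granzyme gene Gzmb called at 1.85 and 1.70. Mcpt8, a basophil protease, rose by 1.92 (adjusted p = 0.00706), the one call among 11 mast cell genes. The Langerhans cell gene Cd207 read 8.32, 9.36 and 8.64 at day 0 and 9.26, 7.93 and 9.32 at day 2 (log2 change 0.07, SE 0.39, adjusted p = 0.927), and among 20 dendritic and Langerhans cell genes 3 rose, 2 fell and none was called. The 3 became 1 without replicate 1 of day 0 or replicate 3 of day 2, and the 2 became 4 without replicate 1 of day 0 and 1 without any other array but replicate 3 of day 2. Epcam, an adhesion gene of Langerhans cells and some epithelia, rose by 1.09 by its brightest probe set (adjusted p = 0.000398), while another did not pass.

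Cell division genes rose nearly without exception. Of 38 mitosis genes, 23 were called higher, 36 rose on the adjusted p and none fell, with a median log2 change of 1.69; of 29 DNA replication genes, 3 were called, 28 rose and the median was 1.01. Cdk1, the kinase that drives entry into mitosis, read 6.94, 6.83 and 6.91 at day 0 and 8.78, 9.28 and 8.74 at day 2 (log2 change 2.04, SE 0.31, adjusted p = 3.3e-05). Birc5, encoding survivin, read 7.19, 6.996 and 7.13 at day 0 and 9.06, 9.43 and 8.98 at day 2 (log2 change 2.05, SE 0.32, adjusted p = 3.84e-05). Bub1, of the spindle checkpoint, rose by 2.21, Top2a by 1.67 and the proliferation marker Mki67 by 1.37. Mcm5, Tk1 and Uhrf1 were the called replication genes, at 1.75, 1.75 and 1.59. Dim second probe sets of Top2a and Mcm5 did not pass. No gene of either list differed between day 2 and day 1 in either direction on the adjusted p, where 0.900% of all genes were higher and 0.720% lower.

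Single matrix genes rose strongly, while the share of the list that rose was near that of all genes (13.1%). Tnc, encoding tenascin C of remodelled matrix, read 6.29, 7.02 and 5.30 at day 0 and 10.56, 11.45 and 10.43 at day 2 (log2 change 4.61, SE 0.43, adjusted p = 3.01e-08). Has3, a hyaluronan synthase, read 4.62, 4.68 and 4.64 at day 0 and 7.82, 7.28 and 7.09 at day 2 (log2 change 2.75, SE 0.32, adjusted p = 9.88e-07), while Has2 fell by 1.18 (adjusted p = 0.0177), a call lost without replicate 1 of day 0 or replicate 2 of day 2. Of 33 collagen and matrix genes, 5 rose, 2 of them called, and 4 fell on the adjusted p; the rises became 2 without replicate 1 of day 0 and 3 without replicate 3 of day 0, and the falls 2 without replicate 2 of either day. Mmp13 and Timp1 were the called members of 20 metalloproteinases, TIMPs and plasminogen genes. Mmp13, a collagenase, read 3.73, 3.61 and 4.06 at day 0 and 6.83, 7.43 and 7.08 at day 2 (log2 change 3.31, SE 0.45, adjusted p = 7.74e-06), and the inhibitor gene Timp1 rose by 2.86. Timp3 fell by 1.04 (adjusted p = 0.00304) by its brightest probe set, and its other 2 did not pass.

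**Figure D2:**
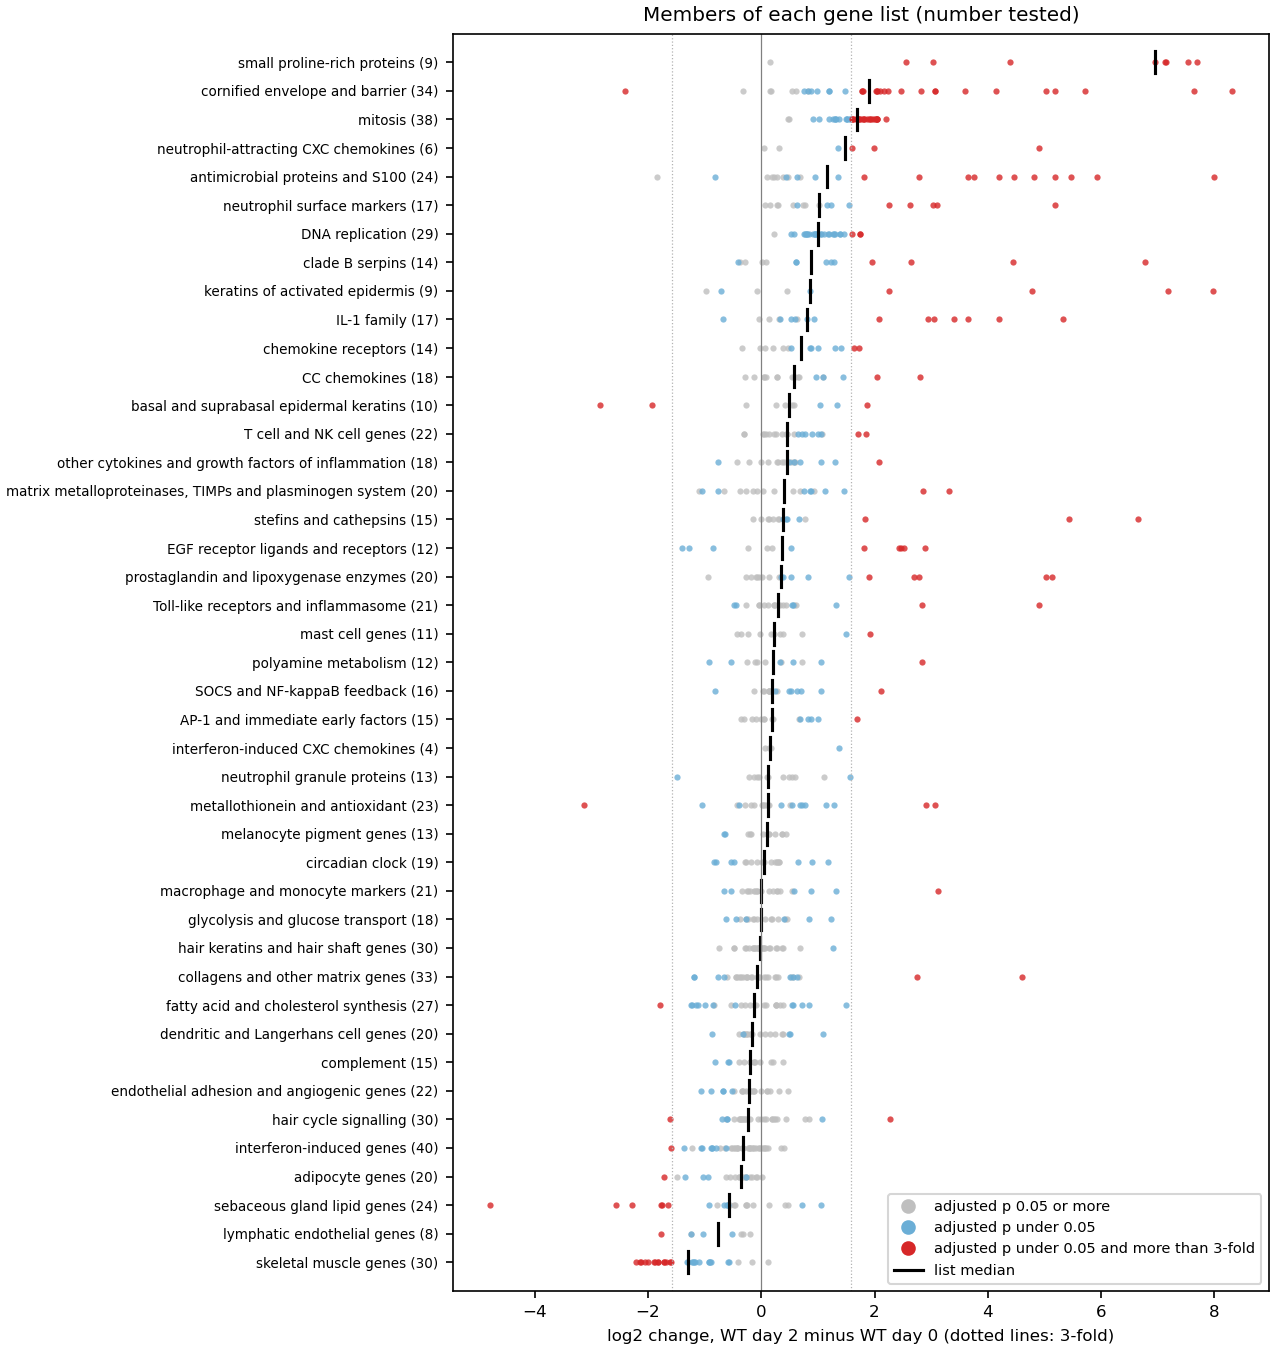
Log2 change from day 0 to day 2 in WT skin (x axis) of every tested member of each of the 43 gene lists (y axis, number tested in brackets, ordered by median); grey points have an adjusted p of 0.05 or more, blue points less, red points are called, and black bars are list medians. Small proline-rich proteins lie farthest right with a median of 6.96, mitosis genes stand together around 1.69, and skeletal muscle genes lie farthest left with a median of -1.30.

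The 15 genes that fell most were of several kinds. Scd3, a fatty acid desaturase of sebocytes, read 10.69, 11.23 and 10.49 at day 0 and 6.39, 5.17 and 6.48 at day 2 (log2 change -4.79, SE 0.58, adjusted p = 1.93e-06), a 27.6-fold fall. Cyp2g1, a cytochrome P450 gene, read 10.90, 9.15 and 10.98 at day 0 and 6.86, 5.33 and 5.67 at day 2 (log2 change -4.39, SE 0.55, adjusted p = 2.69e-06). Pgr, the progesterone receptor gene, read 9.90, 8.76 and 8.45 at day 0 and 5.60, 4.71 and 4.68 at day 2 (log2 change -4.04, SE 1.08, adjusted p = 0.00725), Oxtr, the oxytocin receptor gene, read 11.40, 9.51 and 10.06 at day 0 and 8.58, 6.59 and 6.18 at day 2 (log2 change -3.21, SE 0.70, adjusted p = 0.00138), and Greb1, known as an estrogen-responsive gene, read 7.92, 6.64 and 6.97 at day 0 and 5.42, 4.13 and 3.80 at day 2 (log2 change -2.72, SE 0.67, adjusted p = 0.00389). In each of these 3 receptor or hormone-responsive genes, replicate 1 was the highest array at both days. A second Greb1 probe set did not pass. Timd4, a phosphatidylserine receptor of resident macrophages, read 7.32, 7.06 and 7.21 at day 0 and 4.67, 4.18 and 4.08 at day 2 (log2 change -2.89, SE 0.42, adjusted p = 1.65e-05). Mt4, the metallothionein of stratified epithelia, read 9.90, 10.26 and 10.003 at day 0 and 5.78, 7.37 and 7.61 at day 2 (log2 change -3.14, SE 0.45, adjusted p = 1.46e-05).

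Crp, Panx3, Cyp1a1 and the zinc finger gene annotated as A630033E08Rik fell by 2.75, 2.65, 2.59 and 2.67. Other probe sets of Panx3 (1) and A630033E08Rik (2) did not pass the adjusted p. For A630033E08Rik 1 of these was brighter than the quoted probe set and gave -0.576 (adjusted p = 0.0921). Skint10, of a family that shapes skin gamma delta T cells, read 8.67, 9.60 and 9.64 at day 0 and 6.83, 5.40 and 7.81 at day 2 (log2 change -2.62, SE 0.76, adjusted p = 0.0122), and without replicate 2 of day 2 its change was -1.98 with an adjusted p of 0.0932. The wax alcohol gene Far2 and the fatty acid hydroxylase gene Fa2h completed the set, with falls of 2.61 and 2.56.

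Lipid genes of the sebaceous gland fell: 6 of 24 were called lower, 10 fell and 2 rose on the adjusted p, and the median log2 change was -0.58. Fa2h read 12.05, 11.55 and 11.99 at day 0 and 9.89, 8.56 and 9.46 at day 2 (log2 change -2.56, SE 0.45, adjusted p = 0.00018). Elovl6 and Elovl5, fatty acid elongases, fell by 1.75 and 1.64, and Cidea, a lipid droplet gene, by 1.77. Elovl3, a sebocyte elongase, read 10.79, 10.19 and 10.61 at day 0 and 10.15, 9.30 and 9.81 at day 2. Its log2 change was -0.78 (SE 0.64, adjusted p = 0.401). With only the WT arrays of days 0 and 2 in the fit, its adjusted p was 0.0469. The sebocyte markers Scd3, Mc5r and Elovl3 averaged between 8.64 and 8.79 at day 0 and between 6.32 and 6.86 at day 2, and 2 of the 3 passed the adjusted p. Among 27 fatty acid and cholesterol synthesis genes, 8 fell and 5 rose, beside 15.8% and 13.1% of all genes. Without replicate 2 of day 0 or replicate 1 or 2 of day 2, the rises became 3. Acacb was the only call (-1.79, adjusted p = 8.74e-06), and a dim second probe set did not pass. Of 20 adipocyte genes, 5 fell and none rose, beside 15.8% and 13.1% of all genes. The 5 became 3 without replicate 2 of day 2. Pnpla3 was the only call, at -1.72 (adjusted p = 0.013), lost without replicate 3 of day 2 (adjusted p = 0.0724). Adipoq, encoding adiponectin, read 13.96, 13.76 and 13.89 at day 0 and 13.69, 13.26 and 13.84 at day 2 (log2 change -0.28, SE 0.21, adjusted p = 0.376).

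Skeletal muscle genes fell together. Of 30, 14 were called lower, 27 fell on the adjusted p, none rose, and the median log2 change was -1.30. Actn3, of fast fibres, read 12.55, 12.29 and 12.91 at day 0 and 10.45, 10.21 and 10.47 at day 2 (log2 change -2.21, SE 0.30, adjusted p = 6.5e-06). Casq1, the calcium store protein gene, fell by 2.15, the fast myosin gene Myh4 by 2.13 and titin (Ttn) by 1.83. The muscle markers Acta1, Myh4, Ckm, Tnnt3 and Actn3 averaged between 13.48 and 13.78 at day 0 and between 12.16 and 12.19 at day 2, the 3 day 2 arrays lying closer together than the controls. All 5 passed the adjusted p. The share of muscle in each piece of skin was not measured and its part in these values was not tested.

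Lymphatic endothelial genes lay below control in all 8 members, with 1 called lower, 4 lower on the adjusted p and a median of -0.77. Reln, encoding reelin, read 9.42, 9.43 and 9.73 at day 0 and 8.08, 7.40 and 7.81 at day 2 (log2 change -1.77, SE 0.33, adjusted p = 0.000291). Mmrn1 fell by 1.24 (adjusted p = 0.00569; 0.0514 without replicate 2 of day 2), and without that array 2 members passed. The defining members Lyve1, Flt4 and Prox1 changed by -1.25, -0.36 and -0.33 with adjusted p values of 0.133, 0.153 and 0.314. With only the WT arrays of days 0 and 2 in the fit, the adjusted p of Lyve1 was 0.0216. D6 itself, Ccbp2, read 8.10, 8.04 and 8.54 at day 0 and 7.07, 6.78 and 7.76 at day 2 by its brightest probe set (log2 change -1.03, SE 0.25, adjusted p = 0.00308), and a second probe set gave -0.75 (adjusted p = 0.0264) and the remaining one -0.41 (adjusted p = 0.178). Of 22 endothelial adhesion and angiogenic genes, 5 fell and none rose, beside 15.8% and 13.1% of all genes. Among the 5, Kdr, a VEGF receptor gene, fell by 0.88 and Cd34 by 1.06.

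Interferon-induced genes fell or did not pass the test. Of 40, 9 fell on the adjusted p and none rose, beside 15.8% and 13.1% of all genes. Of these genes 1 was called lower (0.861% of all genes), and the median log2 change was -0.33. Without replicate 2 of day 0, the highest control array for Ifi44, Ifit1, Oas2, Usp18 and Mx1, 4 fell. Ifi44 read 7.87, 8.62 and 6.93 at day 0 and 4.71, 6.92 and 6.97 at day 2 (log2 change -1.60, SE 0.51, adjusted p = 0.0228), with adjusted p values above 0.05 without replicate 1 or 2 of day 0 or replicate 1 of day 2. Ifit1 read 7.82, 8.77 and 7.99 at day 0 and 6.77, 6.46 and 7.25 at day 2 (log2 change -1.37, SE 0.36, adjusted p = 0.00601). Oas2, Usp18 and Mx1 fell by 1.06, 1.04 and 0.87, and Irf7, an interferon regulatory factor gene, read 8.17, 8.11 and 7.40 at day 0 and 7.29, 7.44 and 7.47 at day 2 (log2 change -0.49, SE 0.24, adjusted p = 0.142). Without replicate 3 of day 0 Irf7 changed by -0.74 with an adjusted p of 0.0382. The adjusted p of Mx1 was 0.0715 without replicate 2 of day 0.

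Several lists differed from control in few members on the adjusted p, beside 13.1% of all genes that rose and 15.8% that fell. Of 30 hair shaft genes 1 rose and none fell, and of 13 melanocyte genes 2 fell and none rose. Of 18 glycolysis genes 3 rose and 3 fell (1 without replicate 3 of either day), with the glucose transporter gene Slc2a1 at 1.23 (adjusted p = 3.21e-05). Of 15 complement genes 3 fell and none rose, and without replicate 1 of day 0 or replicate 1 or 2 of day 2 1 fell.

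Few genes differed between days 1 and 2. Against WT day 1, 82 probe sets were called (0.228%), 39 higher (0.108%) and 43 lower (0.119%), and without replicate 3 of day 1 or replicate 2 of day 2 the count was 39 or 43. The split was not stable: 18 were higher and 63 lower without replicate 2 of day 1, 25 and 33 without replicate 1 of day 2, and 57 and 35 without replicate 3 of day 2. Among the strongest risers, chosen for their high day 2 values, Defb3 stood 3.83 higher at day 2 than at day 1, Uox 3.31, Lce3a 2.92 and Serpinb3a 2.35, which is given without a test. Of 24 antimicrobial and S100 genes 5 were higher and 2 lower than at day 1, with Lcn2 up by a further 3.06 (adjusted p = 0.00316) and Slpi by 2.38 (adjusted p = 0.001). Beside 0.720% of all genes, 8 of 30 hair shaft genes were lower than at day 1, as were 5 of 13 melanocyte and 6 of 30 hair cycle genes. In the hair shaft list the medians against day 0 were 1.01 at day 1 and -0.03 at day 2.

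Against WT day 4, 417 probe sets differed from day 2 (1.16%), 246 higher at day 4 (0.683%) and 171 lower (0.475%; 257 without replicate 2 of day 4). Genes of the neutrophil surface list were higher at day 4 in 16 of 17 (8.23% of all genes), and cornified envelope genes lower in 14 of 34 (9.72% of all genes). Among these, Flg was 4.37 lower at day 4 (adjusted p = 1.64e-06), Casp14 2.30 lower (1.06e-06) and Ivl 2.01 lower (0.000222). Krt1 and Krt10 were 4.40 and 4.53 lower (adjusted p = 8.67e-07 and 1.17e-07). Cxcl5 was 6.84 higher at day 4 (adjusted p = 1.25e-11), Cxcl1 3.37 higher (2e-08) and Il6 4.25 higher (9.8e-08).

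Some genes at day 2 stood apart from both day 1 and day 4. On the adjusted p against each of these days, 56 probe sets of 54 genes were higher at day 2 and 26 probe sets of 21 genes lower. They came from 31923 tested probe sets with 1 symbol. Day 0 was not part of that rule, but the same day 2 arrays were, which favours the counts that follow. In 53 of the 56 the day 2 mean was also above that of day 0 (49 on the adjusted p). Of all 36029 probe sets 17825 were above it (3979 on the adjusted p). In 20 of the 26 the day 2 mean was also below that of day 0 (9 on the adjusted p), beside 18204 of all probe sets (5413 on the adjusted p). The examples were chosen after their values were seen. Spink12, a Kazal-type protease inhibitor gene, averaged 3.73, 4.50, 7.71 and 4.45 at days 0, 1, 2 and 4. Fetub and Tmprss11a, a cystatin family and a serine protease gene, averaged 7.75 and 7.33 at day 2 and at most 4.81 and 4.73 at days 0, 1 and 4. Fetub spread widely at day 2, with 8.02, 9.65 and 5.59. Its change from day 0 did not pass the methods' t-test after Benjamini-Hochberg adjustment (adjusted p = 0.135). Ccl20 averaged 5.94, 6.98, 8.75 and 6.65, Tgm3 5.20, 6.78, 8.26 and 6.81, and Il1a 5.38, 7.18, 8.43 and 6.80. Serpinb3a also peaked, at 11.02 between 8.67 and 9.54. Of the genes lower at day 2 than at days 1 and 4, the heat shock genes Hsph1 and Hspb1 averaged 7.48, 8.79, 7.40 and 8.34, and 13.04, 13.06, 12.37 and 12.97. The clock gene Cry1 averaged 6.62, 8.32, 6.90 and 7.37, with day 0 the lowest; its adjusted p against day 0 was 0.065, and lay between 0.0124 and 0.0482 under 6 alternatives, among them median centring and leaving out replicate 3 of day 0 or replicate 2 of day 2. Mt4 fell on past day 2, averaging 10.05, 9.83, 6.92 and 4.44.

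**Figure D3:**
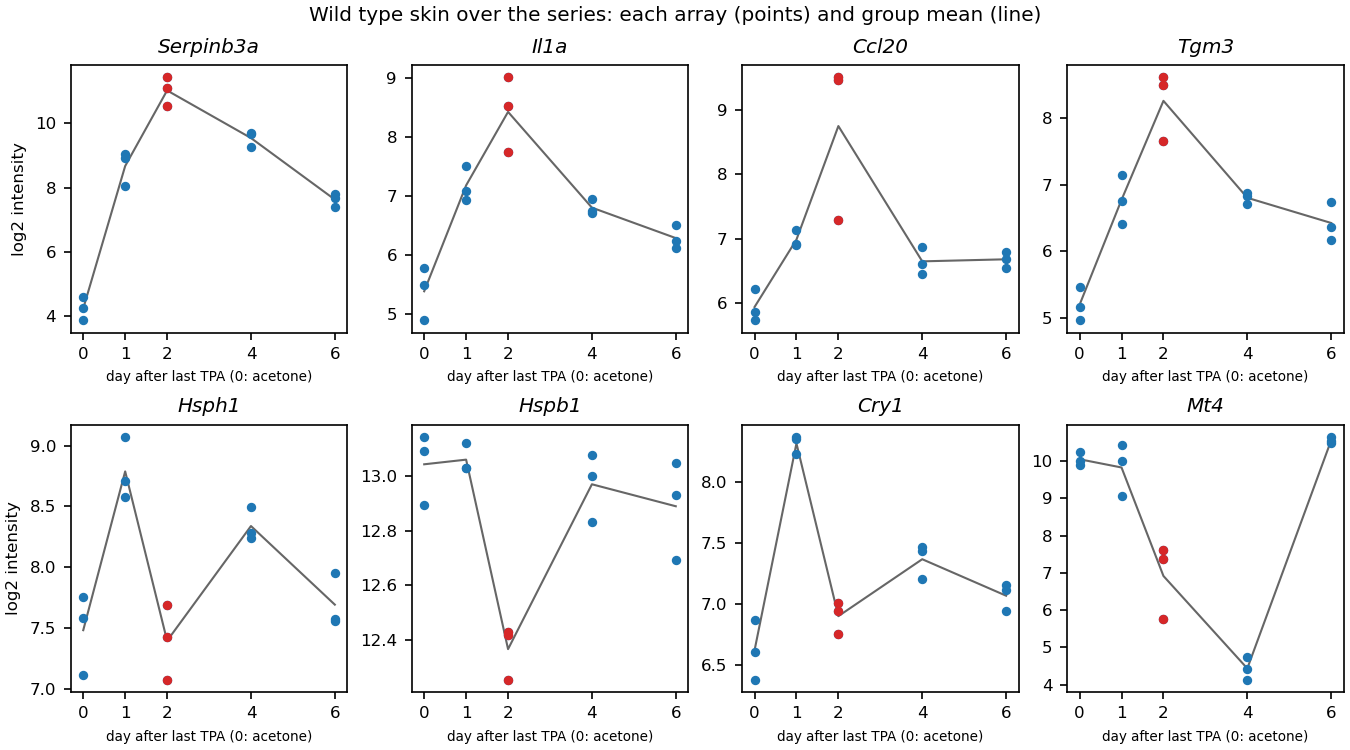
Log2 intensity (y axis) of each WT array at days 0, 1, 2, 4 and 6 after the last TPA application (x axis, 0 is acetone) for 8 genes; blue points are arrays, red points the day 2 arrays, and lines join group means. Serpinb3a, Il1a, Ccl20 and Tgm3 peak at day 2, Hsph1 and Cry1 are higher at day 1 than at days 0 and 2, Hspb1 is lowest at day 2, and Mt4 falls from 9.83 at day 1 to 6.92 at day 2 and 4.44 at day 4.

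The change from day 0 to day 2 was tested against the same change in D6-deficient skin, which has its own controls. The changes differed in 400 probe sets (1.11%), 200 in each direction (0.555%), and without replicate 2 of D6-deficient day 2 122 were positive and 183 negative. Of 34 cornified envelope genes 18 had a larger change in WT skin (3.56% of all genes) and none a smaller one. In all 18 the WT controls lay below the D6-deficient controls, by a median of 0.72. At day 2 WT skin lay above by a median of 0.87. In 8 of the 18 the gap was larger at day 0 than at day 2. Both gaps are part of the difference that chose the 18, which favours these directions. Their share over all genes was not counted. Cnfn changed by 3.60 in WT and 2.02 in D6-deficient skin (adjusted p = 0.00295), Ivl by 2.04 and 0.09 (0.0176) and Casp14 by 4.15 and 2.70 (0.0184). Ivl stood at 9.96 and 9.995 in the respective controls and Casp14 at 7.93 and 9.08. Il1f6 rose by 5.33 from 7.56 in WT and by 2.66 from 9.48 in D6-deficient skin (adjusted p = 0.0099), and Ccl20 changed by 2.81 and -0.56 (0.000356).

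Interferon-induced and neutrophil genes stood the other way. Of 40 interferon-induced genes, 35 had a lower change in WT than in D6-deficient skin (3.16% of all genes), with medians of -0.33 and 1.73, and 13 of 17 genes of the neutrophil surface list did, with medians of 1.02 and 3.30. Mx1 changed by -0.87 in WT and 2.66 in D6-deficient skin (adjusted p = 1.22e-06). Mitosis and DNA replication genes differed between the genotypes in none of 38 and none of 29 members on the adjusted p, where the medians for mitosis genes were 1.69 and 1.51. Fa2h and Elovl3 fell less in WT, by -2.56 against -5.82 (adjusted p = 0.00288) and by -0.78 against -5.56 (0.00203).

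**Figure D4:**
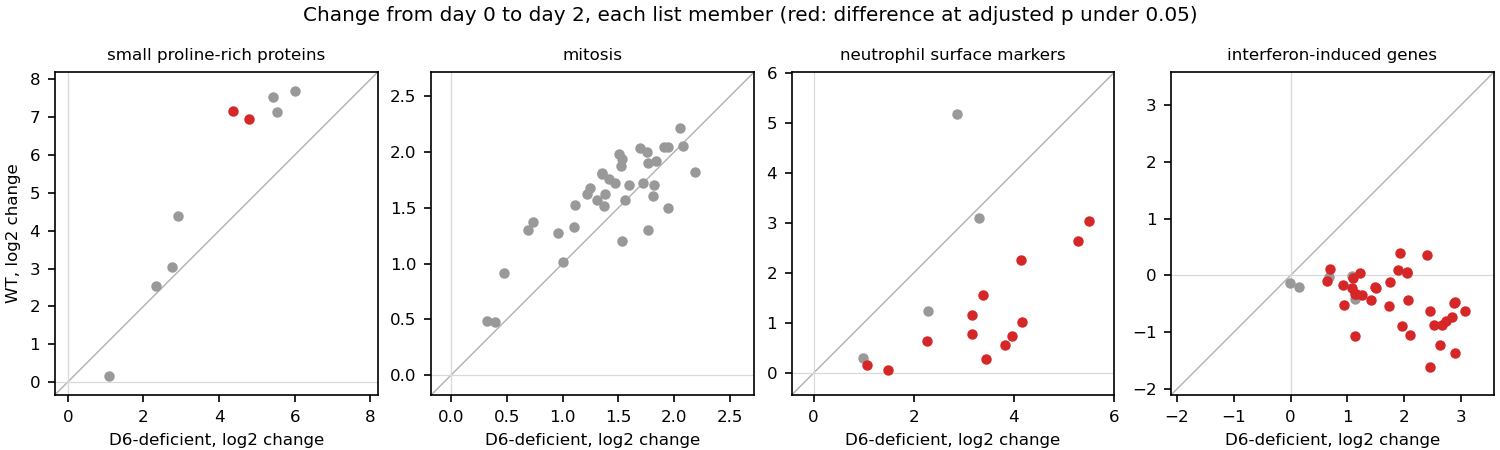
Log2 change from day 0 to day 2 of each list member in D6-deficient (x axis) and WT skin (y axis) for 4 gene lists; the diagonal marks equal change and red points differ at an adjusted p under 0.05. Mitosis genes lie along the diagonal, whereas 35 of 40 interferon-induced and 13 of 17 genes of the neutrophil surface list are red and lie below it.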

How the data were processed

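Total RNA of whole back skin was hybridized to Affymetrix mouse whole-genome arrays, 1 per mouse. The authors background-corrected, quantile-normalized and summarized the probes by RMA in GeneSpring and deposited linear intensity values for all 30 arrays without base-line transformation; quantile normalization gives every array nearly the same distribution, so only changes relative to the rest of the RNA are seen. A second deposited text holds the sample sheet and was not used. Precision is limited by the 3 arrays per group.

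Their log2 was taken here. The 64 control sets and, of the remaining 45037, the dimmest 20% by average (9008) were not tested, after the study's methods, which used unpaired t tests at more than 3-fold. One mean per genotype and day was fitted to the 30 arrays with limma 3.58.1 (lmFit, eBayes; R 4.3.3), with Benjamini-Hochberg adjustment over 36029 probe sets. Figures were drawn with matplotlib 3.10.9 (Python 3.11.15). The script was tested on simulated data. Annotation symbols were taken from the deposited table, and 31923 tested probe sets had 1 symbol, 685 several and 3421 none; probe sets with several symbols named no gene. Genes named are the 15 with the largest increase and the 15 with the largest decrease whose groups did not overlap. Each of these is quoted by its probe set with the largest change. Also named are up to 6 members with the largest change from each of 43 lists, and its defining members, by the brightest probe set. Far2, which is also in a list, is quoted by its largest. One gene that the rule names is not reported here. Of 166 genes named and tested, 52 had more than 1 probe set. In 13, at least 1 other probe set differed in direction or did not pass the adjusted p where the quoted one did. None passed in the opposite direction. The comparison, lists and rules were chosen with earlier results of these data known. Alternatives were scaling, filter, fold threshold, offset, array sets, replicate block, the methods' t-test and leaving out each array.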

Additional observations from a re-analysis of the deposited data

Results flagged for a closer look

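Between WT and D6-deficient skin, the change from day 0 to day 2 differed by more than 3-fold in 39 of the 166 named genes. This was at an adjusted p under 0.05 (limma, all arrays, each genotype against its own 3 controls). The same rule held for 1.11% of all tested probe sets, but many of the 166 were named for a large WT change. Of the differences, 23 were positive and 16 negative. All are on the log2 scale as WT minus D6-deficient. In all 23 positive ones the WT control mean was below the D6-deficient one, by a median of 0.85. In 9 of them the gap between genotypes was larger at day 0 than at day 2. The control gap is part of the difference that chose these genes, which favours this direction. Its share over all genes was not counted.

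Among epidermal and lipid genes the difference was 4.78 for Elovl3 (adjusted p = 0.00203), 3.33 for Far2, 3.26 for Fa2h and 2.63 for Elovl6, all of which fell more in D6-deficient skin. It was 2.78 for Sprr2d (WT mean 6.67 and D6-deficient mean 9.30 in controls, 13.82 and 13.68 at day 2) and 2.16 for Sprr2h (6.08 and 8.18, then 13.04 and 12.97). It was 1.92 for Lce1g, 1.96 for Ivl, 1.96 for Alox12b, 1.70 for Krt15, 2.06 for Gsdma and 2.06 for Panx3. The protease inhibitor genes gave 2.57 for Stfa3 (13.93 and 13.88 at day 2, the WT controls 2.52 below) and 2.10 for Serpinb3a, and Cyp1a1 gave 1.82.

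Among epidermal cytokine genes it was 3.37 for Ccl20, with changes of 2.81 and -0.56 in the respective genotypes, 2.66 for Il1f6, 1.88 for Il1f8, 2.04 for Il1a, 2.60 for Ereg and 2.69 for Chi3l1. The Langerhans cell gene Cd207 gave 2.75, with changes of 0.07 and -2.68, and Epcam gave 1.88.

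Interferon-induced genes differed the other way, by -4.26 for Ifit1 (adjusted p = 1.47e-05), -4.05 for Ifi44, -3.53 for Mx1, -3.37 for Irf7, -3.14 for Usp18 and -2.20 for Oas2. Their changes in WT skin lay between -1.60 and -0.49 and those in D6-deficient skin between 1.14 and 2.89.

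Chemokine and leukocyte genes gave -4.17 for Cxcl3, -2.58 for Cxcl5, -3.94 for Ccl3, -3.24 for Mmp8, -2.65 for Clec4d, -2.48 for Clec4e, -1.84 for Csf3r and -1.65 for Cd68, rising in both genotypes. Timd4 gave -2.20, falling by 2.89 from 7.20 in WT and by 0.69 from 5.63 in D6-deficient skin, to 4.31 and 4.94, and Spink12 gave -2.39, rising by 3.98 and 6.37.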

How the results depend on the processing

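Against day 0, 686 probe sets were called, and 9392 with no fold threshold, 2185 at more than 2-fold and 375 genes after averaging probe sets per symbol; the other alternatives gave between 484 and 760, the latter with replicate 3 of day 2 left out and the lowest of the leave-out counts, 633, without replicate 2 of day 2. Of the 686, between 38 and 101 lost their call when 1 array was left out. Against day 1, the 82 calls became 30 with only the arrays of both groups in the fit, 432 with no fold threshold, 172 at more than 2-fold, 0 by the methods' t-test after Benjamini-Hochberg adjustment (97 at its unadjusted p under 0.05), and between 39 and 92 with 1 array left out. Between days 2 and 4, the 417 became 5239, 1289, 47 by the adjusted t-test and 272 per symbol. For the difference between genotypes, the 400 became 1945, 1062 and 258 per symbol. With the replicate number as a block, 686, 79, 418 and 391 were called. The deviations of same-numbered day 0 and day 2 arrays correlated at -0.014, 0.164 and 0.054. Each array is labelled as a separate biological replicate, and what a shared number stands for was not tested. Of 2971 values of named genes under alternatives, 2845 kept direction and side of the threshold, 107 no longer passed the adjusted p and 9 newly did. Many of the 107 came from the methods' t-test after Benjamini-Hochberg adjustment, which takes the spread from the compared arrays alone. By it Cxcl1, Cxcl2, Cxcl3, Cxcl5, Ccl3, Ccl20, Il1b, Il6, S100a8, Lcn2, Ifi44, Ifit1, Oas2, Usp18 and Mx1 did not pass. Their adjusted p values ran from 0.0513 (Il1b) to 0.311 (Ifi44). Clec4e, Csf3r, Mmp8, Mt4, Oxtr, Greb1 and Ccbp2 were also lost by it. Directions reversed only in genes that had not passed: Jun averaged over probe sets gave -0.012, Cd207 on the arrays of the higher hybridization set gave -0.214, and with 1 array left out Cd207 ran from -0.176 to 0.517, Fos from -0.842 to 0.119, Hsph1 from -0.27 to 0.073 and Odc1 from -0.002 to 0.144. Median centring moved the median of all genes by 0.055. The arrays of the higher hybridization set, chosen after seeing the data, gave 701 calls with 2 WT arrays in each group, and those of the lower set 739 with 1 in each, a lone array being assumed to vary like the other groups. Few arrays limit the precision, and dim probe sets most.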

Other observations

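Genes of cystine uptake and detoxification were among those that rose after day 1. Slc7a11, encoding the cystine transporter, read 4.12, 4.33 and 4.14 at day 0 and 7.54, 8.23 and 6.04 at day 2 (log2 change 3.07, adjusted p = 3.82e-07), and Gsta4, a glutathione transferase gene, rose by 2.90 (adjusted p = 2.21e-07). They stood 2.23 and 2.01 above day 1 (adjusted p = 0.00106 for both). In the list of 23 metallothionein and antioxidant genes they were the called rises and Mt4 the called fall, and 9 members rose and 3 fell on the adjusted p.

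Of 19 circadian clock genes none was called. On the adjusted p 3 rose and 4 fell, beside 13.1% and 15.8% of all genes. Only 2 fell without replicate 3 of day 0 or replicate 2 of day 2. The clock output gene Dbp rose by 1.18 (adjusted p = 0.00285). The hour of day at which skin was taken is not given in the sources used here, and its part in these values was not tested.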
